A study of Mus musculus with 2 samples.

Results

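The promoters of long intergenic noncoding RNA (lincRNA) genes were examined in a DNase-seq map of the mouse retina at embryonic day 14.5. A lincRNA gene was taken from the GENCODE M21 annotation of the mm10 genome by its gene type. Its promoter was the window of 1 kb either side of each transcription start site (TSS), and any TSS within 2 kb of a protein-coding TSS was left out. The rule kept 4768 of the 5209 autosomal lincRNA genes, with 6529 of their 7173 TSSs. The 441 genes left out had every TSS within 2 kb of a coding TSS.

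The data were 2 DNase-seq libraries, biological replicates 1 and 2, from healthy retina tissue of strain B6NCrl with male and female embryos pooled. No treatment, mutation or other tissue was included, so all samples belonged to 1 group. The labels name 1 donor for both libraries and a biosample for each, and whether the replicates came from separate litters is not stated. The spread between the libraries may therefore be partly or wholly technical. The samples were whole tissue, so an open promoter in few cells and a weakly open promoter in many cells cannot be told apart.

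DNase I cuts DNA that is not wrapped in nucleosomes, and a DNase-seq peak marks such an open site. Active promoters are usually open just upstream of the TSS, and enhancers are open too. lincRNAs are transcribed, spliced and often polyadenylated like messenger RNAs but encode no long protein. Some act in the nucleus, some carry miRNAs or small nucleolar RNAs (snoRNAs) inside their transcripts, and for many no function is known. In neural tissue they are known for cell-type-restricted expression and for lying near developmental transcription factor genes.

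Replicate 1 had 165269 peaks and replicate 2 had 219308, each 150 bp wide with a deposited score from 1 or 2 up to 150. The meaning of that score is not given in the sources used here, so each peak was given its percentile rank within its own library, where 100 is the strongest. No read number was at hand, and the depth of both libraries is unknown. As a check of the tissue label, all 12 retina marker genes had a promoter peak in both libraries, with ranks from 64.0 (Crx) to 99.8 (Lhx2) in replicate 1. Of the markers of other tissues reported here, Alb, Apoa1, Gata1, Alas2, Myf5, Cdh5, Krt14 and Hoxa3 had no promoter peak in either library, and the muscle gene Myod1 had one at ranks of 75.1 and 77.7.

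The strongest promoter peaks give a view of the DNA behind these ranks. The peaks below were chosen by rank: those of the 3 highest-ranked genes and of the 5 highest-ranked lincRNAs in a list of known names. The peaks of Mir124-2hg, Mir124a-1hg, Miat and Paupar are added because their genes are tied to neurons or to the eye factor Pax6, and they were chosen after their values were seen. Each is the strongest replicate 1 peak overlapped by a replicate 2 peak, 150 bp long, on the plus strand of mm10, read 5′ to 3′. Capitals mark matches on either strand to the homeodomain core TAATTA, the Otx2 and Crx core TAATCC, the E-box CAGCTG, the GC box GGGCGG, the ETS core CCGGAA, the NF-Y box CCAAT, the AP-1 site TGACTCA, the cAMP response element TGACGTCA, the palindromic NRF1 motif or the CTCF core in its 2 common forms. The positions are chr5:151368596-151368745 for D730045B01Rik, chr13:48546556-48546705 for 6720427I07Rik, chr5:25529656-25529805 for 1700096K18Rik, chr1:9944056-9944205 for Snhg6, chr2:119594216-119594365 for 1700020I14Rik and chr19:5802596-5802745 for Malat1. They are chr19:5845836-5845985 for Neat1, chr11:117076676-117076825 for Snhg20, chr3:17793756-17793905 for Mir124-2hg, chr14:64589756-64589905 for Mir124a-1hg, chr5:112228916-112229065 for Miat and chr2:105660636-105660785 for Paupar.
D730045B01Rik: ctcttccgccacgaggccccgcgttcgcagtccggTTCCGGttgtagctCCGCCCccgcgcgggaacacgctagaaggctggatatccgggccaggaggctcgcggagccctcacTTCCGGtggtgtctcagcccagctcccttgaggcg
6720427I07Rik: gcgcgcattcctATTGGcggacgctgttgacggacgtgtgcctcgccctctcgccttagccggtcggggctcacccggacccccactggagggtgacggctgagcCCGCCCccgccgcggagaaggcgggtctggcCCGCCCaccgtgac
1700096K18Rik: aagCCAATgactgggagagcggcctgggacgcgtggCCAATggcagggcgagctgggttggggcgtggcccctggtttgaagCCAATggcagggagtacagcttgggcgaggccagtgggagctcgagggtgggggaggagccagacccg
Snhg6: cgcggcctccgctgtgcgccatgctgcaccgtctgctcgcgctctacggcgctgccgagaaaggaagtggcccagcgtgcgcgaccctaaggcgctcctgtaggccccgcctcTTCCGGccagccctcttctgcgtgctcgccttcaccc
1700020I14Rik: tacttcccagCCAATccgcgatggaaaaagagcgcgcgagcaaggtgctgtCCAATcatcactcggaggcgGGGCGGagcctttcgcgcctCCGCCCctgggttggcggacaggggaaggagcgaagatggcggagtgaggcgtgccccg
Malat1: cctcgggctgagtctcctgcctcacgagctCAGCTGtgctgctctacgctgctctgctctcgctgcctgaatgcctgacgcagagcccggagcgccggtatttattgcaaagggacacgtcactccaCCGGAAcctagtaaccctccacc
Neat1: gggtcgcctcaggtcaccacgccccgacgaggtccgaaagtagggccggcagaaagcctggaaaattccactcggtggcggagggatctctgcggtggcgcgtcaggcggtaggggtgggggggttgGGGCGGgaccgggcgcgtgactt
Snhg20: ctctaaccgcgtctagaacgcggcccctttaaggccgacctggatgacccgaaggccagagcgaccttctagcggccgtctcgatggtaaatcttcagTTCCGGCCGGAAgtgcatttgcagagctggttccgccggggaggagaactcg
Mir124-2hg: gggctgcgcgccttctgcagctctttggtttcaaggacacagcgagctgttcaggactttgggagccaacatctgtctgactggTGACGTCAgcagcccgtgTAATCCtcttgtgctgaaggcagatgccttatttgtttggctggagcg
Mir124a-1hg: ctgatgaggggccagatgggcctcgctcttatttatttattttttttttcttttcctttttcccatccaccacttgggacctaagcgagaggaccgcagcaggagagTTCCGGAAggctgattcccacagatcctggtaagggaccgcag
Miat: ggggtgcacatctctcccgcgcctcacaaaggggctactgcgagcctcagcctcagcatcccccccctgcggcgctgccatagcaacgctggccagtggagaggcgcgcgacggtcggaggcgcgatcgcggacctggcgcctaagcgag
Paupar: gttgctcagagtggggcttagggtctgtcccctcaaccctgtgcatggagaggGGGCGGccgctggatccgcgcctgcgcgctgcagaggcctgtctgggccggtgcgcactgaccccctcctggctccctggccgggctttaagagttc

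The 3 top-ranked peaks were rich in GC-box, ETS or CCAAT matches. The peak of 6720427I07Rik, the host gene of 3 let-7 miRNAs, was 73.3% G or C, held 19 CpGs and had 2 GC boxes and 1 CCAAT match. That of 1700096K18Rik held 3 CCAAT matches and no GC box. The Snhg20 peak held 2 ETS matches that abut head to head, and in Mir124a-1hg the 2 ETS matches overlap. The Mir124-2hg peak was 55.3% G or C with 6 CpGs, and it held the cAMP response element and a TAATCC match. The Miat peak held none of the motifs. The peaks of D730045B01Rik, Snhg6, 1700020I14Rik, Malat1, Snhg20, Mir124a-1hg, Miat and Paupar overlapped an annotated exon of their own gene, and those of 6720427I07Rik, 1700096K18Rik, Neat1 and Mir124-2hg overlapped no exon. A match is a description of the letters and not a bound site.

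The first question was how many lincRNA promoters were open. In replicate 1, 1256 of 4768 lincRNA genes had a promoter peak, 26.3% (exact Clopper-Pearson 95% interval 25.1 to 27.6%). In replicate 2, 1509 did, 31.6% (30.3 to 33.0%), and the mean was 29.0% ± 3.75 (SD, n = 2). Both libraries had a peak at 1151 genes, 24.1% (22.9 to 25.4%), where the same count over all 51229 autosomal genes of any type, with no distance rule, gave 39.4%. In the single libraries the value over all genes was 40.8% in replicate 1 and 43.0% in replicate 2. Peaks in replicate 1 alone were found at 105 lincRNA genes and in replicate 2 alone at 358, and 3154 genes had none in either. All intervals cover counting error only. Genes are not replicates and each library is 1 sample, so no test was made between gene classes, here or below.

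Set beside other gene classes, with the 2 kb rule kept for the noncoding ones, lincRNA genes stood between coding genes and pseudogenes. Of 20807 autosomal protein-coding genes, 70.2% had a promoter peak in both libraries (69.5 to 70.8%). Antisense genes over 2 kb from a coding TSS were at 22.6%, close to the lincRNA share, and genes typed as processed transcripts were at 34.8%. Genes of the annotation type TEC, transcripts still awaiting experimental proof, were at 11.5%, processed pseudogenes at 4.59% and unprocessed pseudogenes at 2.76%. Windows of the same width away from any TSS were at 6.45%. The lincRNA genes left out by the 2 kb rule were at 75.7% (71.5 to 79.7%), a share above that of coding genes. With the 5′-most TSS alone, the shares were 22.7% for lincRNA genes and 65.6% for coding genes. The share was higher in lincRNA genes with more windows: 20.7% of 3788 genes with 1 TSS, 34.4% of 627 with 2 and 42.5% of 353 with 3 or more.

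The open share fell with distance from coding genes. Among lincRNA genes 2 to 5 kb from the nearest coding TSS, 32.0% had a peak in both libraries (26.3 to 38.2%, 250 genes). The share was 29.0% at 5 to 10 kb, 27.7% at 10 to 50 kb, 24.03% at 50 to 200 kb and 15.8% over 200 kb (13.6 to 18.1%, 1027 genes). Both libraries showed this order, with 33.6% in the nearest and 17.6% in the farthest bin in replicate 1, and 38.8% and 21.3% in replicate 2. Counted per TSS, and with the left-out TSSs put back, the share was 87.6% within 0.5 kb of a coding TSS (410 TSSs), 80.0% at 0.5 to 1 kb, 42.6% at 1 to 2 kb and 35.1% at 2 to 3 kb. Inside 1 kb the lincRNA window and the coding promoter are largely the same DNA. The 2 kb rule itself keeps the windows of the 4768 genes over 1 kb from any coding TSS. No peak overlapping these windows lay within 1 kb of one, which the rule all but fixes in advance.

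**Figure D1:**
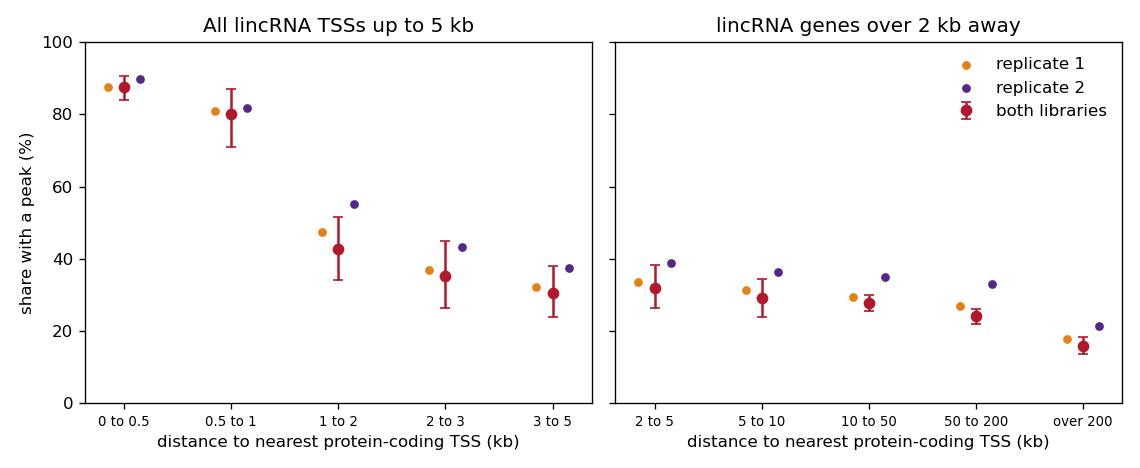
Share of lincRNA TSSs (left, up to 5 kb, left-out TSSs included) and lincRNA genes (right) with a promoter peak, in percent, by distance to the nearest protein-coding TSS in kb. Red points are peaks in both libraries with exact 95% intervals, orange and purple points are the single libraries; the share in both libraries runs from 87.6% within 0.5 kb to 15.8% over 200 kb.

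Open and closed lincRNA promoters also differed in base composition. CpG content was taken over 500 bp either side of the 5′-most TSS, as the CpGs observed over those expected from the numbers of C and G. The median ratio was 0.298 (quartiles 0.209 to 0.430) for lincRNA genes open in both libraries, 0.224 for those open in 1 library and 0.194 (0.128 to 0.275) for those open in neither. Over all 4768 genes it was 0.216, and over coding genes 0.568. In the distance bins above, the median ratio was 0.220 to 0.238 up to 200 kb and 0.190 over 200 kb. Its part in the fall of the open share with distance was not tested. When the lincRNA genes were cut into 10 equal bins by this ratio, the share open in both libraries went from 7.13% in the lowest to 58.1% in the highest. Over the same bins the median rank of the strongest peak went from 44.4 to 86.2 in replicate 1 and from 45.2 to 87.6 in replicate 2. The most CpG-rich lincRNA promoters were both more often open and, where open, higher in rank than the least.

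At matched CpG content the classes still differed in the share open, and the direction changed along the scale. Both classes were pooled and cut into 10 equal bins. In the lowest bin, 6.49% of 663 lincRNA promoters (4.73 to 8.64%) and 3.54% of 1895 coding promoters (2.75 to 4.47%) were open in both libraries. In bin 2 the shares were 10.4% and 8.27%, and in bin 3 they were 18.04% and 14.1%, with overlapping intervals in both. In bin 4 the order turned, with 22.9% of lincRNA and 28.5% of coding promoters open. In bin 6, ratios from 0.431 to 0.586, 45.8% of 330 lincRNA promoters (40.3 to 51.3%) and 87.3% of 2227 coding promoters (85.8 to 88.6%) were open. In the 4 highest bins the lincRNA shares were 72.8% of 81, 82.5% of 40, 83.3% of 30, and 12 of 16, beside 95.8 to 99.3% for coding promoters. Windows away from any TSS were lower than lincRNA promoters in all 10 bins, from 2.94% to 48.0%, although the intervals overlapped in the highest. Only 16 lincRNA genes fell in that bin.

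**Figure D2:**
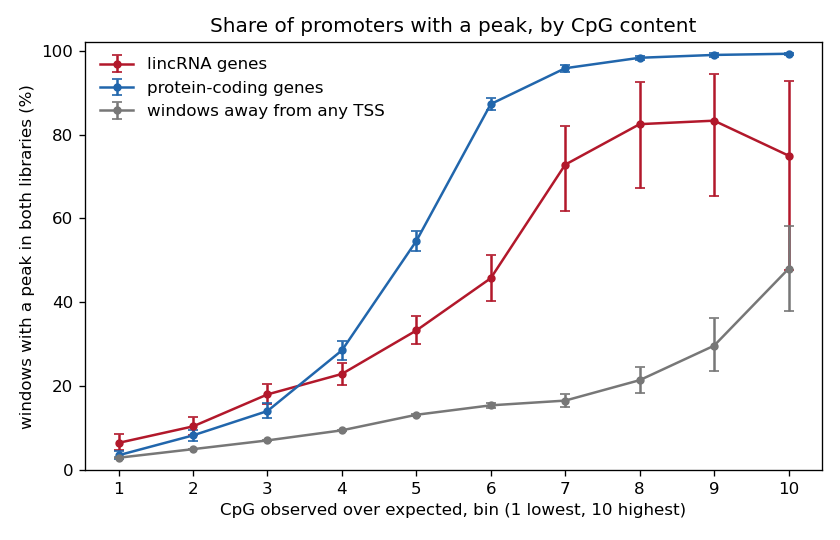
Percent of windows with a peak in both libraries (5′-most TSS) against the CpG observed-over-expected bin, from 1 (lowest) to 10 (highest), for lincRNA genes, protein-coding genes and windows away from any TSS, with exact 95% intervals. The lincRNA curve lies above the coding curve in bins 1 to 3 and below it from bin 4 on, and above the TSS-free windows throughout.

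Repeats ran the other way, being known mostly as remnants of transposable elements. The repeat-masked share of the sequence had a median of 13.2% in lincRNA promoters open in both libraries and 19.4% in those open in neither. The share open in both libraries was 33.4% (30.4 to 36.5%) in the quintile with fewest repeats and 9.96% (8.13 to 12.04%) in the quintile with most.

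Within open windows, the peaks gathered at the annotated TSS less tightly than at coding genes. The centre of the strongest peak lay within 100 bp of the 5′-most TSS for 26.6% of 1184 lincRNA genes in replicate 1 and 25.2% of 1426 in replicate 2. For coding genes it was 57.1% and 56.0%, and for TSS-free windows, measured from the window centre, 8.90% and 8.96%. Within 250 bp the lincRNA shares were 44.3% and 41.5%. The lincRNA peaks therefore lay between a sharp promoter profile and a flat one in both libraries. Stronger peaks lay closer. Among lincRNA genes whose strongest peak ranked over 90, 36.5% of 203 in replicate 1 and 33.1% of 284 in replicate 2 had it within 100 bp, beside 23.5% and 19.6% of those ranked up to 50. Genes ranked over 90 also had a higher median CpG ratio, 0.471 and 0.396, than those ranked up to 50, 0.233 and 0.225. They lay nearer a coding TSS, at a median of 28.7 and 30.6 kb against 67.1 and 66.9 kb.

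**Figure D3:**
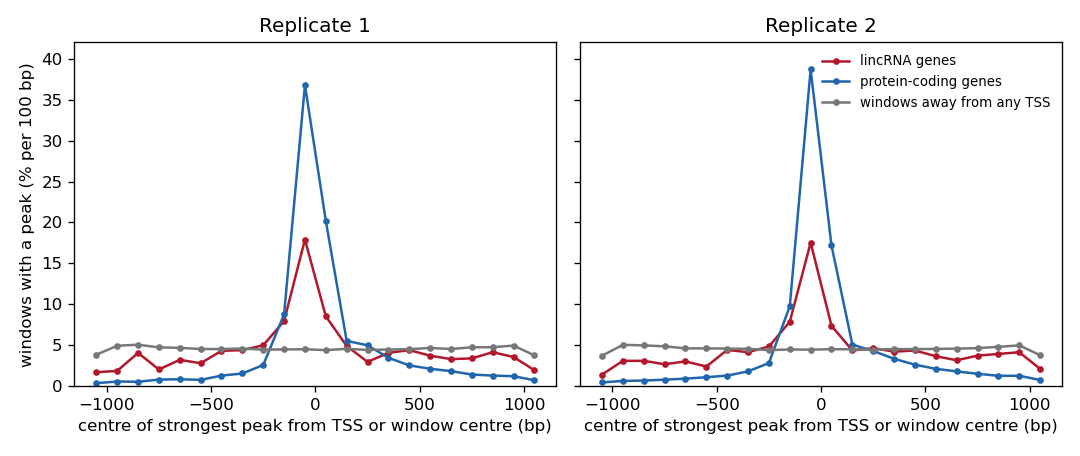
Percent of windows with a peak whose strongest peak is centred in each 100 bp step from the 5′-most TSS, or from the window centre for windows away from any TSS, on the strand of the gene, in replicate 1 (left) and replicate 2 (right). The lincRNA profile has its maximum just upstream of the TSS, lower than that of coding genes. In the outer steps it lies below the TSS-free windows. At -950 bp it is 1.86% against 4.93% in replicate 1 and 3.09% against 5.04% in replicate 2.

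The ranks themselves were middling. The strongest window peak of an open lincRNA gene had a median rank of 67.8 in replicate 1 (quartiles 43.2 to 85.9) and 68.7 in replicate 2 (42.8 to 87.8). Coding genes had medians of 95.2 and 96.1. A rank over 90 was reached by 215 lincRNA genes in replicate 1, 17.1% of those open, and by 299 in replicate 2, 19.8%, beside 70.9% and 72.5% of open coding genes. Most open lincRNA genes had 1 window peak, 674 of 1256 in replicate 1 and 796 of 1509 in replicate 2. A further 262 and 348 had 3 or more. Window peaks were counted over all windows of a gene, so a gene with more TSSs had more sequence to hold them.

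The replicates ordered the shared genes alike. Over the 1151 lincRNA genes open in both libraries, the ranks had a Spearman correlation of 0.948 across genes, which share the libraries and are not independent. The 2 ranks lay within 10 points for 67.7% of them, and 202 genes ranked over 90 in both. The rank was higher in replicate 2 for 952 of the 1151. Ranks are set within lists of 165269 and 219308 peaks, so a higher one does not show a more open promoter in replicate 2. Genes open in 1 library alone had weak peaks there, with a median rank of 14.8 in replicate 1 and 28.6 in replicate 2. The same was seen per peak: 31.8% of lincRNA window peaks in the lowest quintile of replicate 1 ranks overlapped a replicate 2 peak, and 98.2% did in the highest quintile. Over all ranks, 76.8% of the 2213 lincRNA window peaks of replicate 1 overlapped one of replicate 2, and 60.0% of the 2737 of replicate 2 overlapped one of replicate 1. For peaks within coding promoters the shares were 79.1% and 67.8%.

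**Figure D4:**
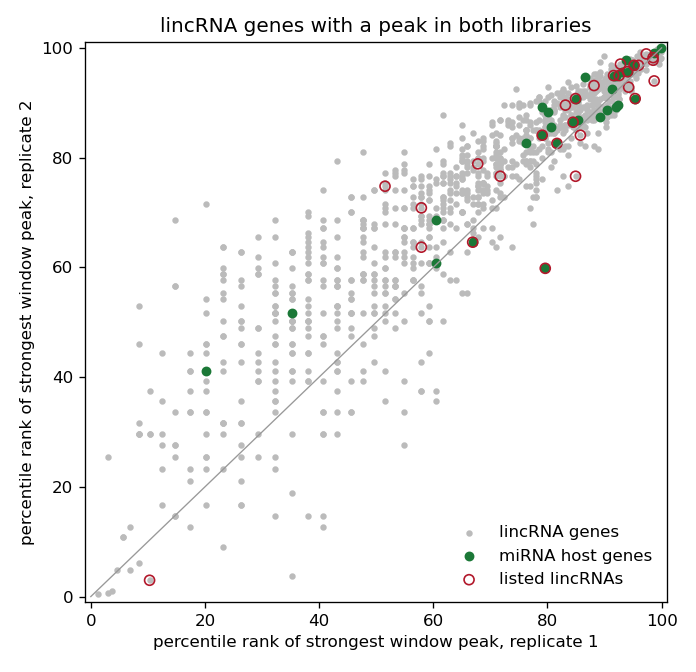
Percentile rank of the strongest window peak in replicate 1 (x) and replicate 2 (y) for the 1151 lincRNA genes with a peak in both, with miRNA host genes in green and listed lincRNAs ringed in red. Points gather along the diagonal at high ranks and scatter above it at low ones, 952 of them being higher in replicate 2.

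The genes with the highest ranks were mostly unnamed clones. D730045B01Rik led, with a rank of 99.98 in both libraries. It lies inside a coding gene and its window holds the TSS of another noncoding gene, 1700028E10Rik, whose exon the peak also overlaps, so the peak cannot be assigned to 1 gene. Next came 6720427I07Rik at 99.86 and 99.98, 1700096K18Rik at 99.57 and 99.99, Gm26709 at 99.97 and 99.32, and Gm6410 at 99.3 in both. The remaining 15 of the top 20, down to C030034I22Rik at 98.3 and 98.0, held 1 gene of the known list, Snhg6, and 1 further miRNA host, Gm20732, which carries Mir30d. CpG ratios of the top 20 were above the lincRNA median of 0.216 in 19, and Gm47887, at 0.19, was the exception.

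A list of 96 known lincRNA names contained 36 of the 4768 genes. Of these, 28 had a promoter peak in both libraries, 2 in replicate 2 alone and 6 in neither. The share with a peak in both was 24.1% over all 4768 lincRNA genes and 39.4% over all autosomal genes. The listed genes had from 1 TSS, as in Mir17hg, to 14 in Lncpint, and lincRNA genes with more TSSs were more often open. A further 7 listed lincRNAs, among them Rmrp, Hottip, Snhg18 and Lhx1os, were left out by the 2 kb rule. The list was drawn up from general knowledge and is no random sample of lincRNA genes.

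The widely expressed nuclear and snoRNA-host RNAs were near the top. Malat1, an abundant nuclear RNA, ranked 97.3 in replicate 1 and 98.9 in replicate 2. Neat1, the scaffold of paraspeckles, ranked 95.9 and 96.8. Of the snoRNA hosts, Snhg6 ranked 98.5 and 98.2, Snhg12 92.8 and 97.0, Snhg20 95.2 and 96.8, and Epb41l4aos 98.7 and 94.0. In all 6 the ranks of both libraries were over 90. The windows of all 6 also held the TSS of another gene that is neither lincRNA nor coding, small RNAs included, so their peaks are not theirs alone. Over all 33 snoRNA host genes, however, 11 had a peak in both libraries, 33.3% (17.96 to 51.8%).

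Neural lincRNAs were open over a wider range. Miat, also called Gomafu and known from retinal and other neurons, ranked 92.6 and 94.95. Rmst, a neurogenesis RNA known to bind Sox2, ranked 84.5 and 86.5 with 7 and 8 window peaks over 13 TSSs. Pantr1, which lies 2.62 kb from Pou3f3 and is transcribed away from it, ranked 71.7 and 76.6. Otx2os1, 2.52 kb from Otx2, a homeobox gene of photoreceptor and bipolar cell development, ranked 57.9 and 63.7, while the Otx2 promoter itself ranked 91.1 and 94.5. The TSS of Otx2os1 lies inside a coding gene. Paupar, 7.56 kb from Pax6 and transcribed away from it, ranked 92.8 and 94.95 and had 4 and 5 peaks. In each of these 5 replicate 2 gave the higher rank, as it did for 952 of the 1151 lincRNA genes open in both libraries. The windows of Miat, Rmst and Pantr1 also held the TSS of another gene that is neither lincRNA nor coding. The strongest shared peaks of Miat and Rmst overlapped exons of the lincRNA genes Gm26953 and Gm26700 too, so these peaks cannot be assigned to 1 gene.

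The other listed lincRNAs described here ranged from high ranks to no peak. Meg3, a maternally expressed RNA, ranked 79.1 and 84.1, and Mirg, from the same cluster, 66.9 and 64.6. H19, also maternally expressed, had 4 window peaks in replicate 2, the strongest at 72.9, and none in replicate 1. Trp53cor1, a p53 target near Cdkn1a, ranked 57.9 and 70.8, and Pvt1, near Myc, 84.9 and 76.6. Ptgs2os2 had a weak peak at 10.3 and 2.97. Bvht, a cardiac lincRNA, had a peak at 54.2 in replicate 2 alone. Carmn, which shares Il17b with Bvht as its nearest coding gene, was open in both libraries at 88.2 and 93.1. Mirt1 was open in both too, at 51.5 and 74.8. No peak was found at Hotair or Halr1, which lie in or by the Hox clusters, at the blood-cell gene Mir142hg, or at Gm26917, 4930440I19Rik and A230057D06Rik.

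**Figure D5:**
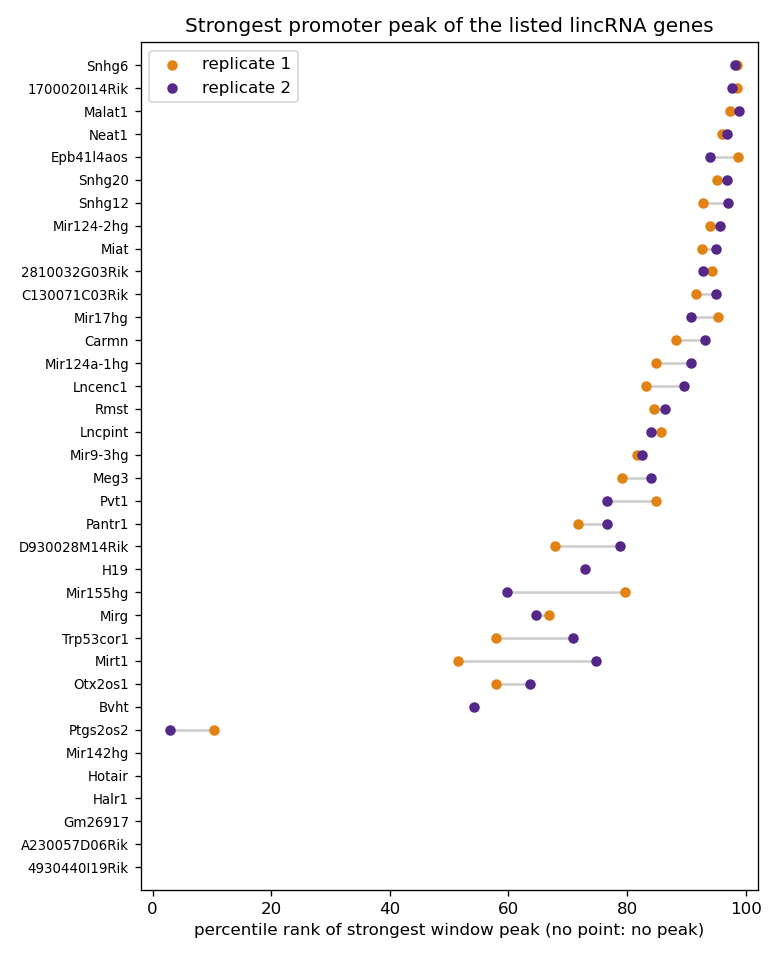
Percentile rank of the strongest promoter peak in replicate 1 (orange) and replicate 2 (purple) for the 36 listed lincRNA genes, ordered by their mean, with a line joining the libraries. 28 genes have both points, H19 and Bvht have replicate 2 alone, and the 6 lowest rows have no point.

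Host genes of miRNAs were examined as a group, which was chosen after values were seen. Among the 20 highest-ranked lincRNA genes, 6720427I07Rik and Gm20732 were such hosts. Of 60 lincRNA genes with a miRNA inside them on the same strand, 30 had a peak in both libraries, with an exact interval of 36.8 to 63.2%, where genes with no small RNA were at 23.8% (22.6 to 25.02%). Split by annotation, it was 23 of 39 hosts with a named miRNA, 59.0% (42.1 to 74.4%), and 7 of 21 hosts of a numbered prediction alone, 33.3% (14.6 to 57.0%). Hosts open in both libraries had from 1 TSS, as in 6720427I07Rik, to 13 in Rmst. Those with no peak in either had from 1, as in Mir142hg, to 5, as in A230057D06Rik. As lincRNA genes with more TSSs were more often open, these shares are limited by not being adjusted for TSS number.

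Several open hosts carried miRNAs known from neural progenitors and neurons. The mature forms that could be matched in RefSeq (GRCm38.p6) follow, with the seed, bases 2 to 8, in capitals.
let-7a-5p: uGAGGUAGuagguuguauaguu
let-7d-5p: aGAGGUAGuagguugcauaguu
let-7f-5p: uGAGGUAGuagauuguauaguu
miR-9-5p: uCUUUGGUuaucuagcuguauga
miR-129-5p: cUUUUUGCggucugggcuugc
miR-125b-5p: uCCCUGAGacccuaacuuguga
miR-17-5p: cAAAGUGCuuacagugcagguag
miR-20a-5p: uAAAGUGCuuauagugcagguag
miR-18a-5p: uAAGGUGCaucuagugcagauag
The let-7 forms share the seed GAGGUAG and all 3 are encoded within 6720427I07Rik. Here and below a miRNA comes from a host by its place in the annotation, as mature RNA was not measured. miR-17-5p and miR-20a-5p share AAAGUGC and come, with miR-18a-5p, from Mir17hg, a growth-linked cluster host that ranked 95.4 and 90.8 with 1 peak in each library. miR-125b-5p comes from Gm49317, which also carries Mir100 and a further let-7a gene, Mirlet7a-2, and ranked 90.5 and 88.7. miR-129-5p comes from both Mir670hg, at 93.8 and 97.8, and Gm3294, at 79.1 and 89.1. let-7, miR-9 and miR-124 are known for promoting neuronal differentiation.

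The 3 loci of miR-9, a miRNA of neural progenitors, differed. C130071C03Rik, the host of Mir9-2, had 12 peaks in replicate 1 and 15 in replicate 2 and ranked 91.6 and 94.95. Mir9-3hg ranked 81.7 and 82.6 with 3 and 5 peaks. Gm3764, the host of Mir9-1, had no peak in replicate 1 and 2 weak ones in replicate 2, the stronger at 23.2. The same mature sequence therefore came from 2 hosts open in both libraries and 1 that was not. In the order given, the 3 hosts had 4, 7 and 11 TSSs. Of the miR-124 hosts, Mir124-2hg had 11 and 9 peaks and ranked 94.0 and 95.7, and Mir124a-1hg had 7 and 8 and ranked 84.9 and 90.8. Together with Lncpint (10 and 10), Mir670hg (9 and 10) and Malat1 (10 and 8), C130071C03Rik and Mir124-2hg were the 5 lincRNA genes with the most window peaks. These genes had from 4 TSSs (Malat1 and C130071C03Rik) to 14 (Lncpint), where 3788 of the 4768 lincRNA genes had 1. The counts were not adjusted for this.

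The named-miRNA hosts with no peak in either library included several known from other tissues. They were the hosts of Mir205 (epithelia), Mir216a and Mir217 (pancreas) and Mir142 (blood cells). The host of Mir122, a liver miRNA, had a peak of rank 33.7 in replicate 2 alone. Not all closed hosts were of this kind, since that of Mir138-2, a miRNA known from brain, and A430106G13Rik, which carries Mir181b-1, were closed too. Nor were all open hosts neural: Gm28653, which carries the muscle miRNAs Mir206 and Mir133b, ranked 60.5 and 68.7, and Mir155hg, of immune cells, 79.6 and 59.8. The strongest Gm28653 peak lay upstream of its TSS, at -832 bp. Such offsets were also found at other open hosts: 948 bp at C130071C03Rik, -708 bp at Mir17hg and -616 bp at Mir9-3hg. Others were nearer, such as -130 bp at 6720427I07Rik and -36 bp at Mir670hg.

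The nearest protein-coding genes were then described. The nearest coding gene was open in both libraries for 84.0% of lincRNA genes with a peak in both (81.8 to 86.1%) and for 82.6% of those with none (81.2 to 83.9%). These intervals overlap, so an open neighbour went with open and closed lincRNA promoters about as often. Both shares were above the 70.2% of all 20807 autosomal coding genes, where each coding gene counts once. The nearest coding TSS was closer to open ones, at a median of 48.1 kb (quartiles 18.2 to 125 kb), against 73.0 kb (24.3 to 200 kb) for closed ones. Other peaks were denser around open promoters, with a median of 9 and 12 within 50 kb in replicates 1 and 2 against 6 and 8. Orientation made little difference: 24.8% were open in both where the lincRNA ran on the strand of its neighbour, 24.4% where it was transcribed away and 22.3% where it was transcribed towards it (19.7 to 25.1%).

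Where the neighbour was in a list of developmental regulators the open share was higher, and the list of other regions was no lower than those of the retina. Where the nearest coding gene was in a list of retinal progenitor genes, 17 of 52 lincRNA genes had a peak in both libraries, 32.7% (20.3 to 47.1%). For retinal neuron genes it was 32 of 83, 38.6% (28.1 to 49.9%), and for transcription factors of other regions or tissues 19 of 48, 39.6% (25.8 to 54.7%). The 4585 genes near none of the lists were at 23.6% (22.4 to 24.9%), which lies inside the interval of the progenitor list. The intervals of the 3 lists overlap each other, and several lincRNA genes share 1 neighbour. The median CpG ratio was also higher beside the lists, at 0.250, 0.270 and 0.237 against 0.216, and other peaks were denser, at 12, 10 and 15 within 50 kb in replicate 1 against 7. Their part in the higher shares was not tested.

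Among lincRNA genes beside retinal genes, the 2 highest by their lower rank were next to Notch pathway genes. Gm5091 ranked 95.8 and 96.1 and lay 120 kb from Dll1, a Notch ligand of newborn neurons. 4632428C04Rik ranked 95.9 and 95.4 and lay 55.7 kb from Hes1, a Notch effector that keeps progenitors undifferentiated, and 9030404E10Rik, 24.9 kb from Hes1, ranked 90.8 and 94.95. All 3 were over 90 in both libraries. Near other regulators of progenitors, G630016G05Rik, 2.13 kb from Meis2, ranked 92.8 and 95.2, Gm44946, 9.43 kb from Nr2f2, ranked 93.6 and 94.5, and Gm13589, 70.2 kb from Lhx2, ranked 79.6 and 87.8. Near neuronal genes, Gm26755, 2.77 kb from the proneural factor Neurod1, ranked 91.8 and 94.0, and its TSS lies inside a coding gene. A330102I10Rik, near Sox4, ranked 88.9 and 94.5 with 6 peaks in each library, Gm26872, near Barhl2, 85.8 and 88.7, and Gm20649, near Onecut1, 76.3 and 81.0. Gm26803, 76.7 kb from Mef2c and inside the span of the Mir9-2 host on the other strand, ranked 93.8 and 97.5.

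Open neighbours also had closed lincRNA genes beside them, chosen here after their values were seen. Sox2, a progenitor factor whose promoter ranked 96.5 and 97.8, was the nearest coding gene to 8 lincRNA genes. One of these, Gm29135, had a peak in both libraries, at 56.5 and 57.7, and Gm20515, Gm21388, Gm3143, Gm34599, Gm38509, Gm42205 and Gm42695 had none in either. Near Hes1, Gm1968 at 85.2 kb had none, unlike the 2 Hes1 neighbours above. Near Otx2, Gm35766 and Gm49151, at 25.6 and 18.5 kb, had none, and Gm49120 had one at 46.0 in replicate 2 alone.

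Counted by neighbour, 929 coding genes were the nearest to at least 1 lincRNA gene open in both libraries, and for 757 of them it was 1 gene. Cd83, an immune-cell surface gene, had the most, 7 of 10, led by Gm33195 at 99.7 and 98.0 and lying 68.0 to 447 kb away. Ly86, a myeloid gene, had 6 of 12, led by Gm29458 at 92.3 and 91.8, although Ly86 itself had no promoter peak in either library. Next were Irx3, a homeobox gene of retinal neurons, with 5 of 7, led by Gm36843 at 90.8 and 94.0, and Bicc1 with 5 of 9. At Bicc1, 3 of the 5 had the same ranks, 8.47 and 29.7, and 2 of those carry the same symbol. Their only replicate 1 peak was the same one, chr10:71182336-71182485, so 1 site was counted for 3 genes. In all, 81 of the 2213 window peaks of replicate 1 and 108 of the 2737 of replicate 2 lay in the windows of more than 1 lincRNA gene.

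Genes open in 1 library alone included a few of middle rank. In replicate 1 alone the strongest were Gm14424, near Hoxd3, at 73.1 with 3 peaks, Gm28182, 6.54 kb from Onecut1, at 62.9 with 4, and Gm34921, near Dusp6, at 59.3. Gm35040 and Gm26732 followed at 57.9 and 54.9. In replicate 2 alone they were Gm12976 at 73.5, H19 at 72.9, Gm38408 and Gm9951 at 66.3 and Gm14005 at 65.5. The Hoxd3 promoter, too, had a peak in replicate 1 alone, at 62.9. Other peaks within 50 kb numbered 61 in replicate 1 and 9 in replicate 2 at Gm14424, and 45 and 26 at Gm28182. They numbered 16 and 27 at Gm34921, 23 and 29 at Gm35040 and 12 in each library at Gm26732. The cause of these differences was not tested. With 2 libraries such genes cannot be separated from peaks missed in the other one.

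The sequence of the peaks was compared with that of other peaks, using replicate 1 peaks overlapped in replicate 2. The 1700 such lincRNA window peaks had a median of 53.3% G or C and 4 CpGs per 150 bp, between the 29881 peaks in coding promoters (62.7% and 10) and the 83250 peaks away from annotated promoters (a median of 50% and 2). Motif shares followed that order for the GC box, at 15.6% of lincRNA peaks (14.0 to 17.5%), 38.4% of coding and 6.18% of distal peaks. The ETS core was in 6.0% of lincRNA peaks, in 11.7% of coding and in 2.85% of distal peaks. The cAMP response element was in 1.12%, 1.59% and 0.298%. For motifs of cell-type-restricted factors the lincRNA peaks were nearer to distal peaks. TAATTA was in 4.41% (3.49 to 5.50%), 1.41% and 6.39%, TAATCC, the core read by Otx2 and Crx, in 5.06%, 2.90% and 5.88%, and the E-box CAGCTG in 15.3%, 10.6% and 16.2%. TGACTCA was in 3.35%, 1.62% and 2.99%, so the lincRNA share was the highest of the 3, with an interval of 2.55 to 4.32% that holds the distal value. CCAAT differed little, at 20.3%, 20.6% and 19.4%. The CTCF core was in 2.41%, 2.55% and 4.92%, and the NRF1 motif in 0.176%, 0.783% and 0.0709%. Base composition differs between the 3 sets and these shares were not adjusted for it.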

How the data were processed

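DNase-seq was measured in 2 libraries of embryonic day 14.5 mouse retina. The deposited peak lists hold 150 bp peaks with a score in column 7 whose meaning the file headers do not give, and the authors' hotspot lists hold a −log10 q-value by the order of their columns, used in 1 alternative. Both are on mm10, per the labels. Which aligner and peak caller were used is not given in the sources used here. No read number was at hand, so the precision that depth gives is unknown. Exact duplicate lines were removed (34 and 56 peaks).

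Windows came from GENCODE M21 and sequence from GRCm38.p6. A window was open when a peak overlapped it by at least 1 bp. Scores were ranked within each library. Intervals are exact Clopper-Pearson at 95% (scipy 1.17.1), counting error only. No test was made between groups, as there is 1 group. The window code was tested on simulated data and found all 200 planted peaks in 500 windows. Python 3.11.15, pandas 2.3.3 and samtools 1.23.1 were used.

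Named genes were all members of the known list, the 20 highest by the lower of their 2 ranks, the 5 with most peaks, the 5 strongest in each single library, up to 20 beside retina genes and the 3 coding genes with most open members. A tie added 1 more. The members and lists were chosen with earlier results of these data known. Alternatives changed the window, the 2 kb rule, the score minimum, the overlap, the TSSs used and the library. Sex chromosomes were left out by the rule, and the score was never compared between libraries. One marker of other tissues is not reported here.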

Additional observations from a re-analysis of the deposited data

How the results depend on the processing

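The number of lincRNA genes open in both libraries, 1151, was within 1.5 times of that value under 15 of 16 alternatives. It was 712 with windows of 250 bp either side. With a single library it ranged from 1256 to 1509. The last 3 alternatives were chosen after seeing the data: 1140 without peaks scored in decimal form, 1098 without windows holding another noncoding TSS and 1093 without TSSs inside a coding gene. The lincRNA share of 24.1% was 19.2% with 500 bp either side, 17.9% with peaks at or above the median score and 28.9% with none left out by distance, and ranged from 26.3% to 31.6% with a single library. The coding share of 70.2% was 68.7% with 500 bp, 65.6% at the 5′ end and 67.4% at or above the median score, and 71.1% to 72.8% with a single library. An open neighbour was found for 81.6% of open and 81.5% of closed lincRNA genes with 500 bp, for 81.9% and 80.5% at or above the median score, and for 85.0% to 86.1% and 83.5% to 84.6% with a single library. The median distance of open and closed genes was 53.3 and 78.9 kb with TSSs within 5 kb left out, 41.7 and 72.2 kb at or above the median score, and 50.4 to 51.7 kb and 71.7 to 72.7 kb with a single library. Smaller windows and higher score minimums hold fewer peaks by construction, and the cause of the other shifts was not tested. Open genes were the nearer to a coding TSS in every setting listed here. Which peaks depth limits cannot be said without read numbers. No paired analysis was possible because there is 1 group.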
